A study of Homo sapiens with 2 samples.

Results

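The miR-548 family was examined as every entry of the deposited table whose mature name begins with miR-548, whatever its letter, arm or genomic copy. This rule took 78 of 1546 rows, which carry 71 of 1497 mature names and come from 60 of 1095 hairpins, with 49 different letters. The libraries are small RNA libraries of A375, an established human melanoma cell line. Total RNA was taken from cells given DMSO, the usual solvent vehicle, for 48 h. Both libraries, named replicate 1 and replicate 2, form the only group, so no treatment or genotype was compared. The names below are those of the table without its species prefix. The table lists only miRNAs with at least 1 read in a library, so members without a row have no value here.

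A microRNA (miRNA) is cut from a folded hairpin transcript. Either side of the stem can be loaded into an Argonaute protein, and the products are called the 5p and the 3p arm. The loaded strand finds messenger RNAs mainly through its seed, bases 2 to 8 from the 5′ end. The miR-548 family is found in primates and is known to derive from MADE1, a short palindromic DNA transposon of the mariner type whose copies fold into near-perfect hairpins when transcribed. The family therefore has many loci on many chromosomes, and its members resemble each other closely.

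Levels were deposited as RPM, here reads per 1000000 read assignments in a library. Whole reads could be recovered from them. The libraries held 10816826 and 15428446 read assignments, so that 1 read equalled 0.0924 RPM in replicate 1 and 0.0648 RPM in replicate 2. The level that a count of 0 still allows, 3 reads, was 0.277 and 0.194 RPM. A mature name with several hairpins was given the value of its highest hairpin. The melanocyte-enriched miR-211-5p was near this floor (0.277 and 0.130 RPM), whereas miR-509-3p, of a cluster on chromosome X that is active in many melanomas, stood at 264 and 298 RPM.

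The mature sequences that carry the following results are printed first, 5′ to 3′, with the seed in capitals. RefSeq (GRCh38.p14) gave a sequence for 47 of the 71 names. The highest miR-548 miRNA, and a relative within 2 edits of it (substitutions, insertions or deletions) that was far lower, were the following.
miR-548k: aAAAGUACuugcggauuuugcu
miR-548ab: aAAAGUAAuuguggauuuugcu
Among the 3p arms with a sequence, these are the 5 whose mean reached 10 RPM, together with 3 lower miRNAs (miR-548am-3p, miR-548aj-3p and miR-548ae-3p) that lie within 2 edits of one of them.
miR-548o-3p: cCAAAACUgcaguuacuuuugc
miR-548ah-3p: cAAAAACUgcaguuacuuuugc
miR-548am-3p: cAAAAACUgcaguuacuuuugu
miR-548x-3p: uAAAAACUgcaauuacuuuc
miR-548aj-3p: uAAAAACUgcaauuacuuuua
miR-548ae-3p: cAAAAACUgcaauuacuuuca
miR-548f-3p: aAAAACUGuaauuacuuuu
miR-548p: uAGCAAAAacugcaguuacuuu
Of the 5p arms, the first is a sequence that 3 names share, and the last 2 are those called different between the libraries below.
miR-548x-5p, miR-548aj-5p and miR-548g-5p: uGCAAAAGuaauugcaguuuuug
miR-548e-5p: cAAAAGCAaucgcgguuuuugc
miR-548ar-5p: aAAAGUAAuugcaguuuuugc
miR-548ba: aAAGGUAAcugugauuuuugcu
miR-548y: aAAAGUAAucacuguuuuugcc

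The family was widely present and low. After copies were reduced to 1 value, the 71 names together held 351 RPM in replicate 1 and 342 RPM in replicate 2. This was 0.0445% ± 0.00106 (SD, n = 2) of the RPM left after this reduction (775596 and 782740 RPM over all names). With copies summed, the family held 0.0370% of the full deposited RPM. Of the names, 35 of 71 (49.3%) reached 1 RPM in both libraries, against 558 of the 1426 other names (39.1%). At higher levels the order turned. Only 6 miR-548 names (8.45%) reached 10 RPM in both libraries, against 329 other names (23.1%), and 0 reached 100 RPM, against 161 other names (11.3%). The median of the mean levels was 1.16 RPM for the family and 0.564 RPM for the other names. The middle 50% of miR-548 names lay between 0.414 and 4.31 RPM, a narrower range than the 0.125 to 8.29 RPM of the others. The higher median rests on the low end of the table: among names with at least 10 reads over both libraries, it was 2.58 RPM over 54 miR-548 names and 5.03 RPM over the others. With names of the same sequence or the same reads counted once, the family median was 0.860 RPM.

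**Figure D1:**
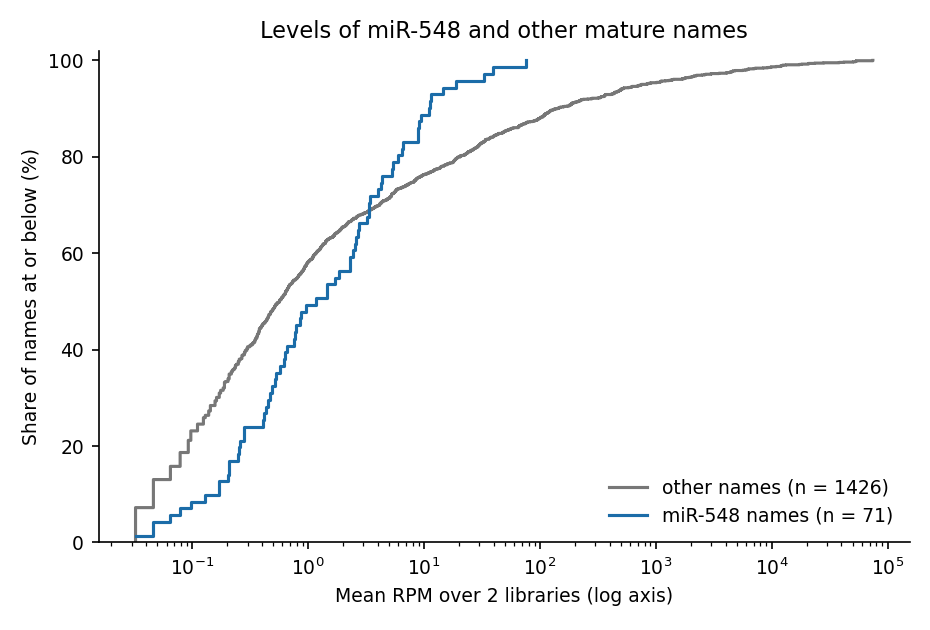
Share of mature names (vertical axis, percent) with a mean level at or below the value on the horizontal axis (mean RPM over both libraries, log axis), for 71 miR-548 names and 1426 other names. The miR-548 curve lies below the other at low levels, crosses it between 1 and 10 RPM and ends at 75.7 RPM, while 161 other names reached 100 RPM or more in both libraries.

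A few names held most of the family's RPM. The 5 highest held 52.5% ± 1.49 (SD, n = 2), and miR-548k alone held 21.8% ± 1.12. The 8 names with a mean of 10 RPM or more held 62.2% of it, the 28 names between 1 and 10 RPM held 33.8%, and the 35 names below 1 RPM held 4.02%.

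MiR-548k is the 5p arm of a hairpin in an intron of PPFIA1, the gene of a liprin scaffold protein found at focal adhesions (GRCh38 chr11:70283955-70284070, plus strand). It had 79.3 RPM in replicate 1 and 72.0 RPM in replicate 2 (858 and 1111 reads), a mean of 75.7 ± 5.17 RPM (SD, n = 2), and ranked 186 among all 1497 names. Its nearest family member was lower in both libraries, so its first place did not depend on the library. MiR-548o-3p followed with 39.6 and 39.9 RPM (mean 39.7 ± 0.208). Its hairpin mir-548o-2 lies in an intron of RALGAPB, which encodes a subunit of a GTPase-activating complex for Ral (chr20:38516563-38516632, plus strand). MiR-548x-3p came next with 33.6 and 32.6 RPM (mean 33.1 ± 0.676), from mir-548x in an intron of its own noncoding host gene MIR548XHG (chr21:18686090-18686164, minus strand). The values of these first 3 names did not overlap between names in either library.

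MiR-548e-3p stood at 19.2 and 18.4 RPM and its partner miR-548e-5p at 10.6 and 7.52 RPM. Their hairpin lies in an intron of SHOC2, the gene of a scaffold that acts between RAS and RAF (chr10:110988926-110989013, plus strand). MiR-548h-5p had 16.1 and 13.2 RPM, and its value did not overlap that of miR-548e-3p. The next 3 names could not be ordered, since their values overlapped. MiR-548ah-3p, from an intron of SHROOM3, which encodes an actin-binding protein of epithelial shape change (chr4:76575551-76575626, plus strand), had 10.4 and 12.6 RPM. MiR-548p, from an intron of the polysialyltransferase gene ST8SIA4 (chr5:100816482-100816565, minus strand), had 9.98 and 12.4 RPM. MiR-548f-3p, highest at mir-548f-2 in an intron of the receptor kinase gene ERBB4 (chr2:212426263-212426360, minus strand), had 13.3 and 8.69 RPM, the widest spread of these 3. Just below were miR-548x-5p with 9.34 and 9.46 RPM, and miR-548aj-5p and miR-548g-5p, both with 9.06 and 8.81 RPM. The limit of 1 RPM in both libraries fell between miR-548t-3p and miR-548aa (each 1.29 and 1.62 RPM), just inside, and miR-548am-3p (0.832 and 1.49 RPM), just outside.

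**Figure D2:**
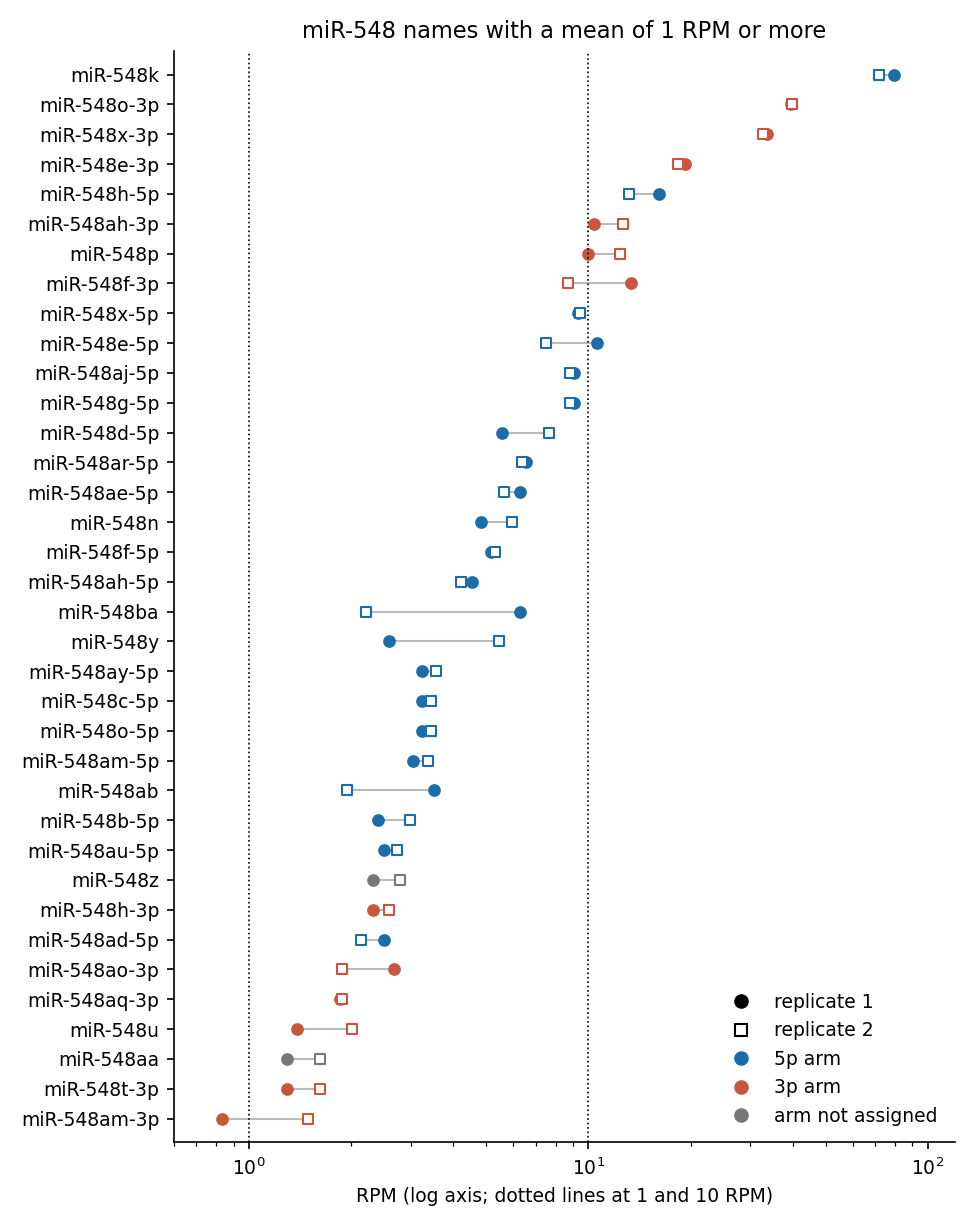
Level in each library (horizontal axis, RPM, log axis) of the 36 miR-548 names with a mean of 1 RPM or more, ordered by mean. Filled circles are replicate 1 and open squares replicate 2, and colours give the arm. MiR-548k lies apart at the top with 79.3 and 72.0 RPM, 6 names lie at or above 10 RPM in both libraries, and miR-548ba and miR-548y show the widest gaps between libraries.

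Most of the family was seen in both libraries. Reads were listed in both libraries for 64 of 71 miR-548 names (90.1%), against 1092 of 1426 other names (76.6%). Replicate 1 listed 66 and the deeper replicate 2 listed 69. With replicate 2 thinned to the total of replicate 1, the expected number was 67.4 in replicate 2 and 62.8 in both, so depth moved these numbers by less than 2 names. The 7 names listed in 1 library were all low. MiR-548ao-5p and miR-548av-5p had 1 read each in replicate 1. In replicate 2 only, miR-548j-3p had 8 reads (0.519 RPM), miR-548ax had 4, miR-548an had 3, miR-548as-3p had 2 and miR-548at-3p had 1. Of these, only miR-548j-3p lay above the 0.277 RPM that a count of 0 allows in replicate 1. With fewer than 10 reads, it was not tested between libraries. None of the 7 can be called absent from the other library at this depth. With 3 reads required for detection, 12 miR-548 names were seen in 1 library only. The other names were not counted at that limit, so this number has no background beside it. In all, 17 of the 71 names had fewer than 10 reads over both libraries, against 611 of the other 1426.

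Both arms of the family were present, and the 5p arms were more numerous. The arm was given by the name for 26 names on the 5p side and 22 on the 3p side. For another 12 and 5 it was read from the place of the mature sequence in the hairpin, and 6 names stayed unassigned. The 38 names of the 5p arm held 58.3% and 56.5% of the family's RPM in replicates 1 and 2, with a median of 2.71 RPM and 22 names at 1 RPM or more in both libraries. The 27 names of the 3p arm held 40.4% and 42.0%, with a median of 0.763 RPM and 11 names at 1 RPM or more. With names of one sequence or equal reads counted once, the shares were 55.8% and 54.0% for the 5p arm and 42.8% and 44.5% for the 3p arm. The 3p side was carried by few names, since miR-548o-3p, miR-548x-3p and miR-548e-3p are 3 of the 4 highest in the family.

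Within single hairpins neither arm was preferred throughout. Of 18 hairpins with both arms listed, 15 had at least 20 reads. The 5p arm was more than 2-fold above the 3p arm in both libraries in 7 of them (mir-548am, mir-548f-1, mir-548b, mir-548c, mir-548ay, mir-548d-1 and mir-548ar). The 3p arm was more than 2-fold above in 5 (mir-548ao, mir-548o-2, mir-548t, mir-548x and mir-548ah). In 3 hairpins, mir-548aq, mir-548e and mir-548j, neither arm met this in both libraries. Among 323 other hairpins these numbers were 144, 119 and 60. The median difference between arms was 3.51-fold in the family and 13.4-fold in the others. Because deeper hairpins can show larger ratios, the others were also taken within the read range of the family (21 to 1131 reads). The 159 hairpins in that range had a median of 7.72-fold, so the miR-548 hairpins with both arms listed were closer to balance here also. This description carries no test. In both groups, hairpins with an unlisted arm were left out of these counts and medians. Such hairpins can be strongly one-sided: miR-548g-5p had 98 and 136 reads, while miR-548g-3p had no row.

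The log2 ratio was that of 5p over 3p reads, with 0.5 reads added to each. Among the 15 hairpins with both arms listed and at least 20 reads, it was most one-sided for mir-548ao, mir-548ar and mir-548o-2. In mir-548ao it was −5.09 ± 1.12 (SD, n = 2), from 29 reads of the 3p arm in each library against 1 and 0 reads of the 5p arm. The 5p share was 3.33% (exact Clopper-Pearson 95% interval 0.0844 to 17.2%) in replicate 1 and 0% (0 to 11.9%) in replicate 2. In mir-548ar, in an intron of CDC16, a subunit gene of the anaphase-promoting complex (chr13:114244505-114244561, plus strand), it was 3.94 ± 1.23, with 5p shares of 89.9% and 97.0%. The deepest of the 3 was mir-548o-2 with −3.56 ± 0.0490, although its 5p reads (35 and 53) equal those of miR-548c-5p. Its 5p shares of 7.56% (5.32 to 10.4%) and 7.93% (6.00 to 10.2%) lay within each other's intervals. These intervals cover counting error only, since PCR reads are not independent molecules.

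At the balanced end, mir-548e had a log2 ratio of −1.07 ± 0.308 with 5p shares of 35.6% (30.4 to 41.1%) and 29% (24.6 to 33.7%). In mir-548ah it was −1.38 ± 0.278 with 5p shares of 30.4% and 25%, which still met the 2-fold limit for the 3p arm. In mir-548j it was 1.38 ± 1.33 from only 2 and 11 reads of the 5p arm against 0 and 8 of the 3p arm. Its 5p share in replicate 1 had an interval from 15.8 to 100%, so its balance was not resolved at this depth. The ratios of mir-548x, mir-548f-1 and mir-548d-1 use the reads of their own hairpin row, some of which belong to a mature name shared with another locus. The 5p sequence of mir-548x is also that of miR-548aj-5p and miR-548g-5p from other loci. The 5p reads of mir-548o-2 equal those of mir-548c, and the 3p reads of mir-548t equal those of miR-548aa. The ratios of these hairpins may therefore also hold reads of another locus.

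**Figure D3:**
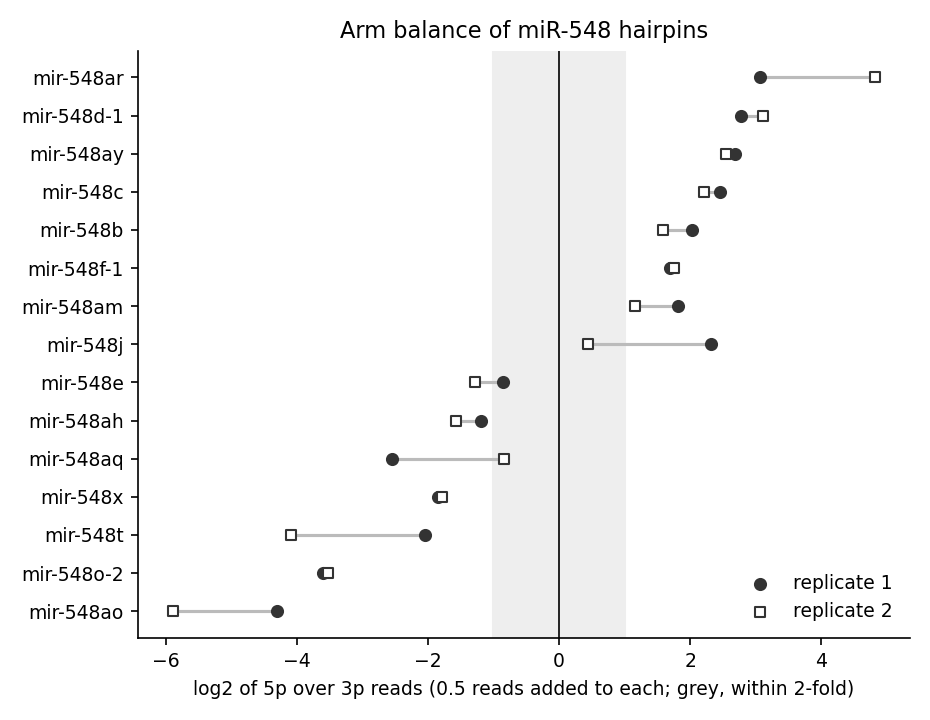
Log2 ratio of 5p over 3p reads (horizontal axis, 0.5 reads added to each arm) for the 15 miR-548 hairpins with both arms listed and at least 20 reads. Filled circles are replicate 1, open squares replicate 2, and the grey band marks ratios within 2-fold. With both libraries outside the band, 7 hairpins lie on the 5p side and 5 on the 3p side, and mir-548o-2 shows almost the same ratio in both libraries.

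Copies of one mature name mostly had unequal values. Of 5 miR-548 names with more than 1 hairpin row, only 1 had copies of nearly equal value, with the lowest at least 0.9 times the highest in both libraries. Among the other names with several rows this was 30 of 40, and 29 of 35 at a mean of 1 RPM or more. The exception was miR-548h-5p. Its hairpin mir-548h-1, in an intron of the estrogen receptor gene ESR2 (chr14:64095024-64095125, minus strand), had 174 and 203 reads. Its other hairpin mir-548h-5, outside annotated genes (chr6:131792172-131792231, plus strand), had 173 and 202 reads. The values of these copies thus differed by 1 read in each library.

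The other 4 names had unequal copies. For miR-548x-3p, mir-548x had 33.6 and 32.6 RPM, whereas mir-548x-2 (chr13:65966330-65966429, minus strand) had 2.13 and 2.01 RPM, a 15.8- and a 16.2-fold difference. For miR-548f-3p, mir-548f-2 had 13.3 and 8.69 RPM. The copy mir-548f-1 in an intron of the cadherin gene PCDH15 (chr10:54607874-54607957, minus strand) had 1.57 and 1.56 RPM, and mir-548f-4 and mir-548f-5 had at most 0.185 RPM, or 2 reads. The order of mir-548f-2 over mir-548f-1 was the same in both libraries. For miR-548d-5p the copies were nearer, with 5.55 and 7.65 RPM at mir-548d-2 (chr17:67471489-67471585, minus strand) and 4.07 and 5.31 RPM at mir-548d-1. For miR-548ag, mir-548ag-2 had 10 reads in each library and mir-548ag-1 had 3 and 0. RefSeq places the mature sequence of miR-548f-3p at 5 loci, of which 4 have a row, and those of miR-548o-3p, miR-548aj-3p and miR-548ae-3p at 2 loci each, with 1 row apiece. How reads were divided among identical copies is not given in the sources used here, so a copy's value need not be the output of its locus.

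**Figure D4:**
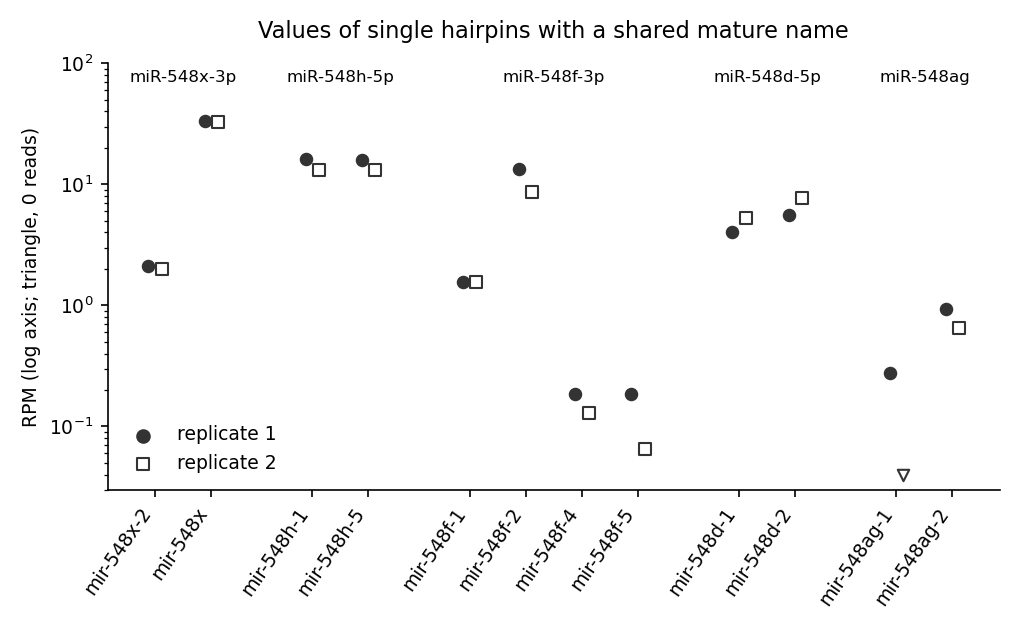
Level of each hairpin row (vertical axis, RPM, log axis) for the 5 miR-548 names with more than 1 row. Filled circles are replicate 1, open squares replicate 2, and the triangle marks 0 reads. The 2 copies of miR-548h-5p lie at the same height, whereas mir-548x lies 15.8- and 16.2-fold above mir-548x-2.

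Different names could also carry equal reads. MiR-548aj-5p and miR-548g-5p have the identical mature sequence printed above and the same 98 and 136 reads. MiR-548x-5p has this sequence too, with 101 and 146 reads, so that adding the RPM of these 3 names may count reads more than once. MiR-548ai and miR-570-5p, a relative from outside the name series, are identical and both had 4 and 3 reads. Equal reads in both libraries were also found for miR-548c-5p and miR-548o-5p (35 and 53) and for miR-548aa and miR-548t-3p (14 and 25). These names have no sequence here. Equal reads also occurred with names outside the family, such as miR-548b-5p and miR-5096 (26 and 46) or miR-548au-5p and miR-3074-3p (27 and 42). Equal reads alone therefore do not show that reads were shared. With family names of one sequence or equal reads counted once, 67 names were left. The family then held 0.0416% of the RPM left after copies were reduced.

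Near-identical sequences could differ widely in level. Of the 47 names with a sequence, 20 had another within 2 edits, which made 24 pairs, and 9 of these differed more than 10-fold in mean RPM. The 9 pairs are not independent, since miR-548o-3p, miR-548x-3p and miR-548ah-3p are each the higher member of more than 1. MiR-548x-3p was 90.8-fold above miR-548aj-3p in replicate 1 and 71.9-fold in replicate 2, at 2 edits, with both seeds the same. These folds are imprecise, since miR-548aj-3p had only 4 and 7 reads. MiR-548k was 22.6- and 37.0-fold above miR-548ab, also at 2 edits. MiR-548o-3p was 3.82- and 3.15-fold above miR-548ah-3p at 1 edit. MiR-548ah-3p was in turn 12.4- and 8.48-fold above miR-548am-3p at 1 edit. In each of these pairs the same member was higher in both libraries. How reads that match more than 1 of them were assigned is not given in the sources used here.

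The 47 sequences used 25 different seeds. The most common, AAAGUAA, belonged to 9 names of the 5p arm, among them miR-548ar-5p, miR-548y, miR-548ab and miR-548b-5p. These names with a sequence summed to 18.3 ± 2.30 RPM (SD, n = 2), less than the single name miR-548o-3p. The 24 names without a sequence, among them miR-548h-5p and miR-548d-5p, could not be given a seed. The names and RPM of each seed are therefore lower limits, and the order of seeds by RPM is not settled. AAAAACU belonged to 7 names of the 3p arm with 48.6 ± 1.73 RPM, of which miR-548x-3p gave most. GCAAAAG belonged to miR-548x-5p, miR-548aj-5p, miR-548g-5p and miR-548f-5p. The highest miRNA, miR-548k, shared its seed AAAGUAC with only miR-548av-5p, which had 1 read in 1 library. Of the 5 highest names, miR-548e-3p and miR-548h-5p had no sequence here, and the other 3 did not carry the most common seed. Outside the family, the seed of miR-548o-3p was also that of miR-1323 (mean 0.574 RPM), and the seed AAGGUAA of miR-548ba, miR-548ag and miR-548ai was also that of miR-570-5p.

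The arms shared short stretches that are reverse complements of each other. The letters AAAAGUA occurred in 17 of 26 sequences of the 5p arm and in 0 of 21 of the 3p arm. Its reverse complement UACUUUU occurred in 0 of 26 and in 11 of 21. Each was searched as written, on the RNA strand alone, and its first copy may overlap the seed. Over both arms AAAAGUA was present in 36.2% of the family and in 0.0787% of 1270 other mature sequences of the table, and UACUUUU in 23.4% and 0.236%. In 10 hairpins with both arms in RefSeq, the longest run of bases in one arm complementary to the other had a median of 9 bases (5 to 18), against 7 bases in 376 other hairpins. The longest, 18 bases, was in mir-548x, whose arms are printed above as miR-548x-5p and miR-548x-3p.

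All 60 hairpins were found by name in the GENCODE 29 annotation (GRCh38), on 21 chromosomes. Their median GC content was 34.7% (26.8 to 44.6%), against 52.6% in 1034 other hairpins, and a median of 79.8% of their bases were paired in the predicted fold, against 72.3%. Of the 60, 36 lay in an intron of a gene on the same strand and 0 in an exon, whereas 196 of the other hairpins overlapped an exon. A host gene on the same strand was annotated for 60% of the family and 75.4% of the others. Another 8 lay only opposite to a gene and 16 outside genes. Another miRNA gene within 10 kb was found for 6 miR-548 hairpins (10%) and for 323 of the others (31.2%). Some loci overlap a second hairpin on the opposite strand. One such locus in RASSF3, a gene of the RAS-association domain family, holds mir-548c on the plus and mir-548z on the minus strand of the same bases (chr12:64622509-64622605). Names of both strands were listed, with 35 and 53 reads of miR-548c-5p and 25 and 43 reads of miR-548z. MiR-548o-5p, from another locus, had the same reads as miR-548c-5p, so these need not come from this locus. Of the 9 hairpins whose higher arm reached a mean of 10 RPM, 8 lay in a host gene on the same strand and 1, mir-548h-5, lay outside genes. The median level of the higher arm was 2.07 RPM over the 36 hairpins with a same-strand host and 2.19 RPM over the 16 outside genes.

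The libraries were compared by Fisher's exact test (two-sided) of each name's reads against all other reads, adjusted by the Benjamini-Hochberg method over the 869 names with at least 10 reads. This compares these libraries, not conditions, and its p-values cover counting error only, with PCR reads taken as independent. A name was called at an adjusted p under 0.05 and a fold above 2. Of the 54 miR-548 names tested, 2 were called, against 4.6% of all names tested, so the family's share was close to the background. The calls went in opposite directions, with 3.34% of all names called higher in replicate 1 and 1.27% higher in replicate 2. MiR-548ba, from an intron of a long noncoding gene opposite FSHR, the gene of the follicle-stimulating hormone receptor (chr2:49059603-49059658, plus strand), had 6.29 RPM in replicate 1 and 2.20 RPM in replicate 2 (68 and 34 reads). It was 2.83-fold higher in replicate 1 (adjusted p = 1.69e-06, Fisher's exact test). MiR-548y, from a hairpin outside genes (chr14:47760995-47761104, minus strand), had 2.59 and 5.44 RPM (28 and 84 reads). It was 2.08-fold higher in replicate 2 (adjusted p = 0.00208, Fisher's exact test), just past the limit.

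MiR-548f-3p and miR-548e-5p passed the adjusted p (0.00169 and 0.0283, Fisher's exact test) but not the fold, at 1.53- and 1.41-fold higher in replicate 1. The opposite arm of mir-548e was nearer between libraries, with 19.2 and 18.4 RPM for miR-548e-3p. MiR-548f-5p had 5.18 and 5.31 RPM, but it was listed for mir-548f-1 and not for mir-548f-2, where miR-548f-3p was highest. Of the 54 names tested, 18 were higher in replicate 1 and 36 in replicate 2, whereas 464 and 351 of the other names tested were. Between 1 and 100 RPM the median difference between libraries was 1.14-fold over 36 miR-548 names and 1.24-fold over 426 other names. With 1 group of 2 libraries, the spread may be partly technical, as the labels give no origin of the replicates beyond calling them independent.

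**Figure D5:**
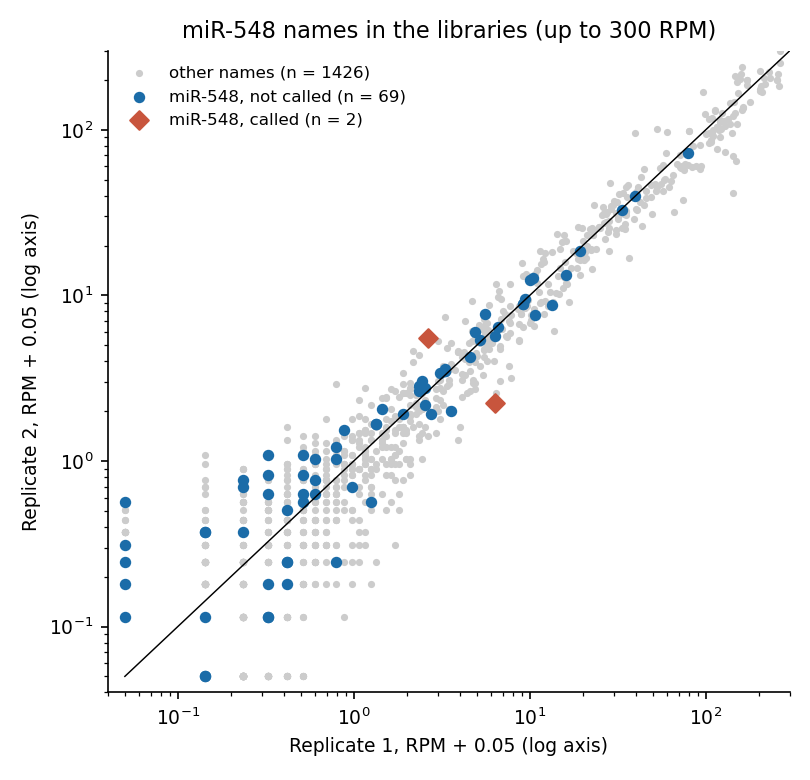
Level of each mature name in replicate 1 (horizontal axis) and replicate 2 (vertical axis), in RPM plus 0.05 on log axes, up to 300 RPM. The line marks equal values, blue points are 69 miR-548 names, grey points are other names, and the 2 diamonds are miR-548ba (6.29 and 2.20 RPM) and miR-548y (2.59 and 5.44 RPM).

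Other miRNAs known to derive from the same transposon, miR-570, miR-579 and miR-603, were low. MiR-579-5p had 2.40 and 1.43 RPM, and miR-579-3p had 0.647 and 0.713 RPM. MiR-570-3p had 0.462 and 0.389 RPM, miR-570-5p 0.370 and 0.194 RPM, and miR-603 a single read in replicate 2. Of these 5 names, 1 reached 1 RPM in both libraries, and their median was 0.426 RPM. A list of 15 hairpins known to overlap other transposable elements had 11 in the table with 19 names. Of these names 17 reached 1 RPM and 10 reached 10 RPM in both libraries, and their median was 22.7 RPM. Its highest members were the arms of mir-151a, from a LINE element, with 5632 ± 660 RPM for miR-151a-3p and 4839 ± 412 RPM for miR-151a-5p (SD, n = 2).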

How the data were processed

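Small RNA of A375 cells was sequenced in 2 libraries of 1 group. CASAVA 1.8 and the adapter trimmer cutadapt 1.2.1 are named in the submitters' processing notes. Aligner, miRNA release and the handling of multiply matching reads are not stated in the labels used here. The authors deposited RPM for each hairpin and mature name, with decimal commas, and 0 other columns of values were present. Trimming, read length and adapter ligation affect which miRNAs are seen, so RPM of different miRNAs are not molar ratios.

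Division by the lowest value of a library gave whole reads (100% within 0.01 reads). The design assumed that copies share reads, so the highest copy was kept. Fisher's exact test (scipy 1.17.1) was tested on simulated data. Folds used 0.5 added reads. The paired share came from RNAfold 2.7.2. Positions, host genes and hairpin GC content came from GENCODE 29. Sequences came from RefSeq (GRCh38.p14). The build behind the deposited values is not given.

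The named miRNAs were the 12 highest, those called between libraries, those with several hairpins, the 3 most one-sided and 3 most balanced hairpins, and the relatives. Other names, such as the near-identical pairs, the names around 1 RPM and those seen in 1 library, were chosen after their values were seen. The members and lists were chosen with earlier results of these data known. P-values of Fisher's exact test cover counting error only and hold no measure of the spread between libraries. Alternatives were summed copies, each library alone, other limits of level, fold and reads, and median-ratio scaling. Names sharing a sequence or reads were counted once in an alternative chosen after seeing the data.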

Additional observations from a re-analysis of the deposited data

How the results depend on the processing

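Of 51 alternative values of the main results, 41 stayed within the replicate spread or 1.5 times the count. Some of these could not have moved, so the tally overstates stability. With 2 libraries each share lies within the SD of their mean, and summing copies cannot change which names have reads. With copies summed, the family held 0.0370% of the full deposited RPM. With family names of 1 sequence or equal reads counted once (chosen after seeing the data), it held 0.0416% of the RPM left after copies were reduced. That counting lowered the family median to 0.860 RPM, still above the 0.564 RPM of the other names. Those other names were not reduced in this way, so the medians are not strictly alike. Among names with 10 reads or more the median was 2.58 RPM, below the 5.03 RPM of the others. In single libraries it was between 1.202 and 1.49 RPM, on the same side of the other names. A minimum of 10 RPM left 6 names, and a detection limit of 3 reads gave 12 names in 1 library only. At that detection limit the other names were not counted. A 4-fold limit left 4 hairpins with the 5p arm higher and 3 with the 3p arm higher. Without a fold limit, 4 of the 54 miR-548 names tested differed between libraries, against 34.5% of all names tested. Such calls depend on read depth, which was lower in the family, so these shares do not compare the spread between libraries. MiR-548ba and miR-548y kept their calls in each alternative of the library test. Looser fold limits could not remove these calls, and summing copies left the reads of both names unchanged. Only median-ratio scaling changed their folds, to 2.64 and 2.23. Of the named miRNAs, summing copies moved miR-548x-3p to 35.1 RPM, miR-548h-5p to 29.2 RPM and miR-548d-5p to 11.3 RPM beyond the replicate spread. For miR-548h-5p, whose copies had nearly equal reads, the sum may count reads more than once. No paired analysis was possible because there is 1 group. Counts under 10 reads, which 17 of the 71 names have, limit any statement on their arms, copies and detection.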
